A study of Mus musculus with 4 samples.

Results

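The regions described here are 4842 distal stretches of open chromatin that carried an ATAC-seq peak in all 4 tumor cell lines of the series. They were chosen by the peak calls themselves and by position, so being open in all 4 lines is the rule and not a finding. The peak lists of the 4 libraries were merged wherever peaks shared at least 1 base, which gave 357556 regions on chromosomes 1 to 19 and X, and 13606 of these held a peak from every list. A shared region was kept when its midpoint lay more than 3 kb from the transcription start site (TSS) of every protein-coding gene in GENCODE M21 (mouse build mm10). The 4842 shared distal regions made up 35.6% of the shared regions and 1.5% of the 321756 distal regions. The other 8764 shared regions, within 3 kb of a TSS, are called shared promoter regions below.

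All 4 lines came from primary lung tumors of *RP* mice (*Rb1* L/L *Trp53* L/L, mixed genetic background), a model of small cell lung cancer (SCLC) in which both tumor suppressors are deleted. The SCLC metastasizing cells (SMC) were sorted as NCAM hi CD44 lo/- and grew as suspended oncospheres. The non-SMC were sorted as NCAM lo CD44 hi and grew attached. There were 2 SMC lines and 2 non-SMC lines, all untreated, with 1 library per line, and *Rb1* and *Trp53* were deleted in both types. Each line is a culture from sorted cells, so line and type vary together and 2 lines per type carry the whole spread between lines. The lists held 91118 peaks for SMC 1, 154039 for SMC 2, 115909 for non-SMC 1 and 128788 for non-SMC 2. The pileup, meaning the number of reads stacked at a peak's summit as the peak caller counted them, was recovered from the deposited values for 99.96% to 99.98% of the shared regions. Its median over the shared distal regions was 8 reads in SMC 1, 15 in SMC 2, 24 in non-SMC 1 and 10 in non-SMC 2, so counting error was largest in SMC 1 and non-SMC 2. SMC 1, with the shortest list, limited the set most: without it, 8729 distal regions were shared by the other 3 lists. Within 3 kb of the TSS of *Chga*, a secretory granule gene of neuroendocrine cells, there were 2 and 3 peaks in the SMC lists and 0 in both non-SMC lists. The epithelial gene *Epcam* had 2 and 1 in SMC and 0 in non-SMC. *Wwtr1*, which encodes TAZ, had 0 and 1 peaks in SMC and 3 and 1 in non-SMC. When all listed peaks were counted, other markers did not follow the sort. The synaptic vesicle gene *Syp* had 1 and 1 peaks in SMC and 3 and 2 in non-SMC. *Cd44* had 0 and 2 against 1 and 1, *Neurod1* 0 and 3 against 1 and 1, and *Insm1* 2 and 2 against 2 and 0. *Ncam1* had 2 or 3 peaks in every list, *Vim* 1 to 3, and *Yap1* 0 and 2 in SMC and 2 and 2 in non-SMC. Of the peaks with −log10 q of at least 5, *Cd44* and *Yap1* had 0 in both SMC lists and 1 in each non-SMC list. *Vim* and *Wwtr1* had 0 in SMC and 2 and 1 in non-SMC. *Syp*, *Neurod1* and *Insm1* had 0 and 1 in SMC and 0 in non-SMC. *Chga* had 2 and 2 against 0, and *Ncam1* 2 and 2 against 3 and 1. Of all listed peaks, 14.3% and 17.1% reached this limit in the SMC lists and 38.0% and 19.5% in the non-SMC lists. The leukocyte gene *Ptprc* had 1 peak, in non-SMC 1, and the endothelial gene *Pecam1* had 1 in each non-SMC list and 0 in SMC. The fibroblast collagen gene *Col1a1* had 1 peak in each SMC list and 3 and 2 in the non-SMC lists. With −log10 q of at least 5, *Col1a1* had 0 in SMC and 2 and 1 in non-SMC, and *Pecam1* had 1, in non-SMC 1. At that limit *Ptprc* had 0 in every list, and *Epcam* had 1 in each SMC list and 0 in non-SMC.

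ATAC-seq marks DNA that the Tn5 transposase can reach. Open chromatin far from promoters is known to include enhancers, which are mostly specific to a cell type, and binding sites of CTCF, the factor that anchors chromatin loops together with cohesin and is bound at similar places in many cell types. AP-1, a dimer of FOS and JUN proteins, opens enhancers in adherent and stimulated cells and often binds beside TEAD factors, the DNA-binding partners of YAP and TAZ. SOX and FOXA are factors of developing lung cells.

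The sequences that the results below turn on are shown as windows of the mouse genome (GRCm38, RefSeq), with regions named by their nearest protein-coding gene as a position and not as a target. The first 5 were the strongest shared distal regions with an exact CTCF core, with the 12-position core in capitals.
4930467E23Rik, chr8:19784528-19784608, plus strand: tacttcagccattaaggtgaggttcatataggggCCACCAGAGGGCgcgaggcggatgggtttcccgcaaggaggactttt
Cp, chr3:19894768-19894848, plus strand: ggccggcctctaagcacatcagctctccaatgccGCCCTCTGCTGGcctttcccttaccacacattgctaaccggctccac
Aqr, chr2:114175378-114175458, plus strand: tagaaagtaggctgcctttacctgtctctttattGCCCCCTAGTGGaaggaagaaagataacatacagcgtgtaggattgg
Zxdb, chrX:94865699-94865779, plus strand: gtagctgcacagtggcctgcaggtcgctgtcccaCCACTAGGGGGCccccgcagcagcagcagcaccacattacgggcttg
Glrx, chr13:75798006-75798086, plus strand: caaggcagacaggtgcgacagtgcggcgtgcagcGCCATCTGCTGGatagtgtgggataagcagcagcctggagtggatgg

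The next 4 had the AP-1 motif TGACTCA, in capitals on either strand, and were among the 8 regions that stood highest in both non-SMC lines relative to both SMC lines.
Cdk17, chr10:93138831-93138911, plus strand: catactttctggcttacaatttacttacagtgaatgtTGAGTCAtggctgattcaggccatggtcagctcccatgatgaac
Frmd4a, chr2:4318394-4318474, plus strand: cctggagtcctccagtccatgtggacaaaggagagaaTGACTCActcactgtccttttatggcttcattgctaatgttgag
Dip2c, chr13:9191417-9191497, plus strand: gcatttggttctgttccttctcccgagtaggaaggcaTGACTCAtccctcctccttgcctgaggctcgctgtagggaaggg
Tpst1, chr5:130089880-130089960, plus strand: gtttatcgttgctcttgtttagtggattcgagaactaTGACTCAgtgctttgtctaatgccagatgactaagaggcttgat

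The last 3 were among the 8 regions that stood highest in both SMC lines and had a SOX motif (ACAATG, in the *Nkain3* window) or a FOXA motif (TGTTTAC), in capitals.
Nkain3, chr4:20518336-20518416, plus strand: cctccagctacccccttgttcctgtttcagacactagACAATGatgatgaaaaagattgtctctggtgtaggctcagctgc
Fam171a1, chr2:3158968-3159048, plus strand: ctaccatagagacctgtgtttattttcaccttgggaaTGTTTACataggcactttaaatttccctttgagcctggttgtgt
Psmg1, chr16:95855397-95855477, plus strand: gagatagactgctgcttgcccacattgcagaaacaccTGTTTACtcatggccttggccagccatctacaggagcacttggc

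The shared distal regions were 692 bp wide at the median, from 122 to 2658 bp, and lay 29.2 kb from the nearest coding TSS at the median, against 47.5 kb for the 316914 distal regions with peaks in 1 to 3 lists. Of them, 20.5% lay between 3 and 10 kb from a TSS and 17.1% farther than 100 kb. Their summits fell in introns of protein-coding genes in 41.6%, in exons in 9.54% and outside these genes in 48.9%. Exons held 5.61% of the summits of the distal regions with fewer peaks. The nearest genes numbered 3537, and 2645 of them had 1 region each. *Maml3*, a coactivator of Notch signaling, and *Rab3c*, a small GTPase of secretory vesicles, each had 8. The 8 regions at *Maml3* lay 16.5 to 216 kb from its TSS, and none had the AP-1 motif. Those nearest to *Rab3c* lay 218 to 840 kb from its TSS, and 1 had the motif.

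Many of these regions were distal only with respect to the gene's own 5′ end. In 1350 of 4842 regions (27.9%) the midpoint lay within 1 kb of the annotated start of some other transcript, against 6.89% of the distal regions with fewer peaks. Alternative coding transcripts of protein-coding genes accounted for 768 of these regions (15.9%, against 1.59%), and long noncoding RNA genes for 384 (7.93%, against 1.45%). A region could be counted under both. The sequence around the summit differed with this position. The regions near a start had a median observed to expected CpG ratio of 0.626 and a GC content of 60.7%, and 44.7% held the GC box GGGCGG. Away from starts, the CpG ratio was 0.259, the GC content 52.7% and the share with a GC box 13.3%. The shared promoter regions had a CpG ratio of 0.787 and a GC box in 58.8%.

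Among the regions at transcript starts were 77 at genes that are not annotated as protein-coding and have a name of their own rather than a clone number. All but 1, an immunoglobulin constant gene, had a noncoding type in this annotation, 15 of them processed transcripts. Some of these carry names known from protein-coding genes, such as *Zswim6* and *Tctn2*. The regions described here were chosen after their values were seen. The region at *Rn7sk*, whose RNA holds the elongation factor P-TEFb inactive, had fold enrichments over local background of 8.68 and 16 in SMC and 16.7 and 11.2 in non-SMC. The strongest of the 77 by its lowest percentile in any list was at *Dancr*, with 10.9, 13.3, 18.2 and 16.9 in SMC 1, SMC 2, non-SMC 1 and non-SMC 2. Regions were also found at several genes of the Snhg family of snoRNA hosts, among them *Snhg8* with 10.2, 8.56, 9.65 and 8.63. The region at *Mir210*, a microRNA gene induced by hypoxia, held a CTCF core and had 9.65, 7.76, 12.9 and 12.2. *Firre*, an X-linked noncoding gene rich in CTCF sites, had 9.95, 8.67, 12.1 and 8.85. The values of the SMC and non-SMC lines overlapped at *Rn7sk*, *Snhg8* and *Firre*, while both non-SMC lines were above both SMC lines at *Dancr* and *Mir210*. Neither of these was called higher in 1 type by the rank rule explained below. Fold enrichments were higher in non-SMC over all shared distal regions, with medians of 4.81 and 4.73 in SMC and 6.67 and 5.49 in non-SMC. The fold was pileup plus 1 over local background plus 1, so it depends on depth. The median background was 0.738 and 2.29 in SMC and 2.58 and 1.02 in non-SMC. Folds without the added 1 were not compared. At 2 imprinted genes, also picked after their values were seen, the lines separated in opposite directions. Both regions were called by the rank rule, as were 12.3% (higher in SMC) and 12.1% (higher in non-SMC) of all shared regions. *Airn* had 7.35 and 7.64 in SMC against 5.40 and 5.14, and *Peg13* had 3.79 and 3.81 against 8.4 and 8.10.

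To compare strength across lists of unequal depth, the fold enrichment of each region was turned into its percentile among the 13606 shared regions of the same library, called the shared-region rank. The median rank of the shared distal regions was 37.7 in SMC 1, 36.7 in SMC 2, 40.9 in non-SMC 1 and 40.2 in non-SMC 2. The shared promoter regions had medians of 56.0, 56.9, 54.2 and 54.9. In every library the distal regions were thus the weaker part of the shared set, while within their whole lists they had median percentiles of 78.7, 83.4, 77.5 and 80.9. The SMC medians averaged 37.2 ± 0.709 (SD, n = 2). The non-SMC medians averaged 40.5 ± 0.516 (SD, n = 2), a difference of -3.35 (SMC minus non-SMC; exact permutation test over libraries, two-sided p = 0.33, the smallest that 2 against 2 allows). The sign turned when the rank was taken in the whole list, where the difference was 1.89. At a q-value of 0.05, 79.8% to 96.1% of the regions passed in each library.

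**Figure D1:**
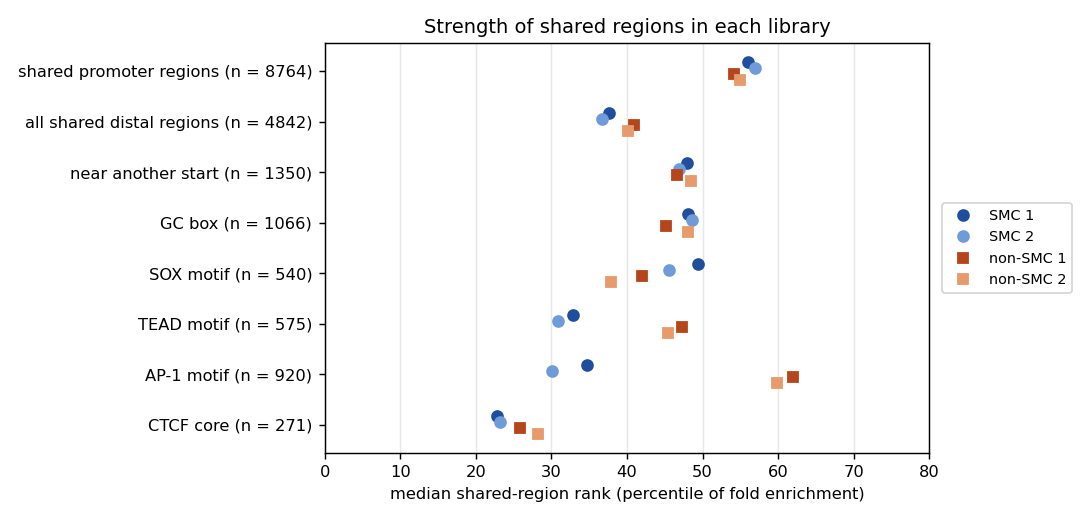
Median shared-region rank (percentile of fold enrichment among the 13606 shared regions, horizontal axis) of shared promoter regions and of groups of shared distal regions, with 1 point per library (circles SMC, squares non-SMC). AP-1 regions lay at 34.7 and 30.1 in SMC and at 62 and 59.9 in non-SMC, and CTCF core regions lay between 22.8 and 28.2 in all 4 libraries.

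The peaks did not always coincide within a region. A base covered in all 4 lists existed in 85.5% of the shared distal and 94.6% of the shared promoter regions. All 4 summits lay within 100 bp in 1580 regions (32.6%, 95% Wilson interval 31.3% to 34.0%), against 41.3% of the shared promoter regions. The median spread of the 4 summits was 162 bp and 127 bp, respectively. Over the shared distal regions, the ranks of the SMC lines had a Spearman correlation of 0.62 and those of the non-SMC lines 0.68, while the 4 pairs across types had 0.31 to 0.33. For the shared promoter regions the pairs across types had 0.64 to 0.70. These are descriptions over regions, which share libraries and depth.

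The CTCF core was more frequent in the shared distal regions than in the other sets of regions examined. Within 100 bp of the summit, 271 of 4842 regions (5.60%, 95% Wilson interval 4.98% to 6.28%) had an exact core on either strand. The shares were 0.810% in shared promoter regions, 0.927% in distal regions with peaks in the SMC lists alone, 0.809% in those of the non-SMC lists alone, 0.761% in all distal regions with fewer peaks and 0.124% in windows 5 kb from the shared distal regions. With 1 mismatch allowed, the share was 16.1%, against 5.44% in shared promoter regions and 2.25% in the windows 5 kb away. By the number of lists with a peak, the core was present in 0.491% of the distal regions with 1 list, 1.42% with 2, 4.46% with 3 and 5.60% with 4. The AP-1 motif, in contrast, was found in 8.13%, 26.4%, 24.5% and 19% along the same steps, and the GC box in 3.15%, 4.50%, 9.03% and 22.0%. With a minimum −log10 q of 5 for every peak, 970 regions were shared and distal and 2.47% of them had the core. No test was made on these shares, whose intervals cover counting error over regions only.

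**Figure D2:**
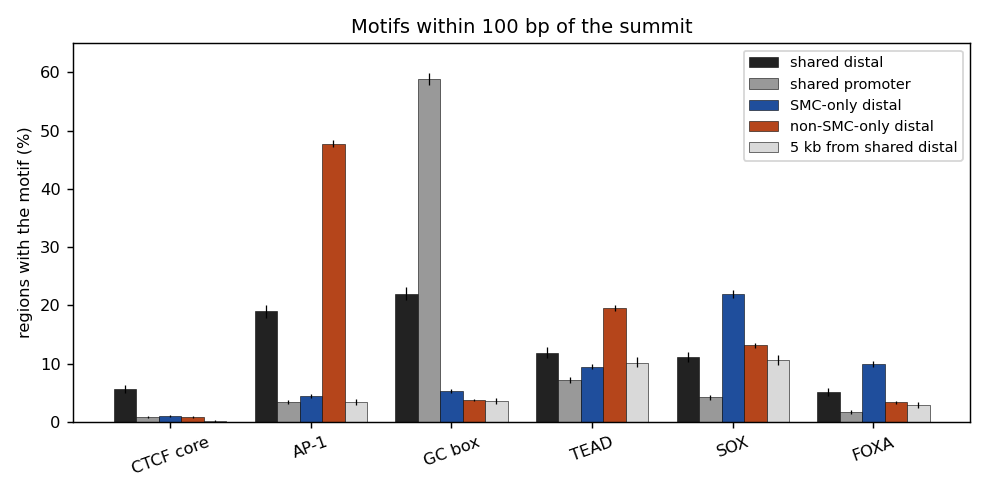
Share of regions with each motif within 100 bp of the summit (vertical axis, %), with 95% Wilson intervals, for 5 sets of regions. Shared distal regions had the highest share of the CTCF core (5.60%), while AP-1 was highest in non-SMC-only distal regions (47.8%) and the GC box in shared promoter regions (58.8%).

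AP-1 was found in 920 shared distal regions (19%, 95% Wilson interval 17.9% to 20.1%), between 4.37% in SMC-only and 47.8% in non-SMC-only distal regions. The windows 5 kb away and the shared promoter regions had 3.37% and 3.39%. TEAD (GGAATG) was in 11.9%, RUNX (TGTGGT) in 16.1% and SOX in 11.2%, which was near the 10.2%, 15.6% and 10.6% of the windows 5 kb away. FOXA (TGTTTAC) was in 5.08% against 2.83%. Some motifs known from promoters had shares between those of shared promoter regions and of the windows 5 kb away: the NFY box was in 4.92% (against 10.7% and 2.21%, respectively), the ETS site in 1.30% (6.85% and 0.351%) and the NRF1 site in 1.09% (4.08% and 0.475%). REST, the repressor of neuronal genes, had its site in 1.53% and NKX2-1 in 1.09%, near the 1.16% and 1.03% of the windows 5 kb away. CRE was in 1.30% against 0.248%. YY1 was in 1.34%, below both the shared promoter regions (3.34%) and the windows 5 kb away (1.57%). The NEUROD-type E-box CAGATG was in 16.7%, against 14.8% of the windows 5 kb away. The NFI palindrome and the GRHL site were in 8 regions each, against 0 and 4 of the windows 5 kb away. The ZNF143 site was in 5 (0.103%, against 0.548% of shared promoter regions and 0.165% of the windows 5 kb away).

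CTCF and AP-1 motifs took different positions relative to the summit, measured in each library from its own summit. Few CTCF cores lay at the summit itself: 5.57% to 9.40% of them lay within 20 bp of it and 60.9% to 75.4% between 20 and 60 bp. The most filled 10 bp bin was 30 to 40 bp from the summit in all 4 libraries, with 22.6%, 24.6%, 36.7% and 26.6% of the cores in SMC 1, SMC 2, non-SMC 1 and non-SMC 2. AP-1 motifs lay within 20 bp in 26.7% to 29.3%. The GC box, spread nearly evenly, had 16.1% to 18.6% within 20 bp. In distal regions with fewer peaks, 9.97% to 12.7% of CTCF cores and 23.7% to 31.3% of AP-1 motifs lay within 20 bp.

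**Figure D3:**
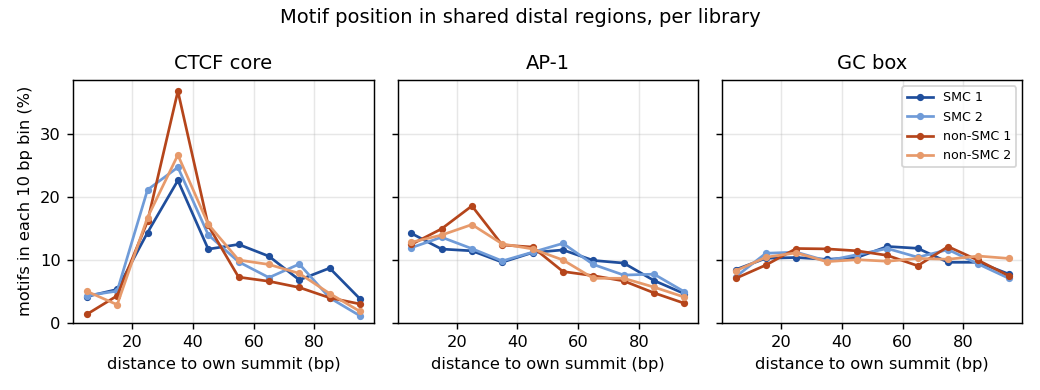
Distance of motif centres from each library's own summit (horizontal axis, bp) in shared distal regions, as the share of motifs in each 10 bp bin (vertical axis, %). CTCF cores peaked at 30 to 40 bp in all 4 libraries, AP-1 motifs were most frequent within 30 bp in the non-SMC libraries and spread over the first 60 bp in the SMC libraries, and GC boxes were spread nearly evenly.

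The strength of the regions went with different motifs. When the shared distal regions were ordered by the lowest of their 4 list percentiles and cut into 4 equal groups, the CTCF core was present in 7.02% of the weakest group and 2.56% of the strongest, and the GC box in 14.3% and 34.2%. AP-1 was present in 19.2% and 19.7%. The regions with a CTCF core had low median ranks of 22.8, 23.2, 25.9 and 28.2 in the 4 libraries, with median pileups of 6, 13, 17 and 8 reads. Those with an NFY box stood high in all 4, at 60.2, 64.6, 63.0 and 57.4.

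A region was called higher in SMC when its lowest SMC rank exceeded its highest non-SMC rank by at least 10 percentile points, and higher in non-SMC in the reverse case. With groups of 2 this is a description of lines that do not overlap and not a test. Of all 13606 shared regions, 12.3% were called higher in SMC and 12.1% higher in non-SMC. Of the shared distal regions, 678 (14.0%) were higher in SMC and 886 (18.3%) higher in non-SMC, while 67.7% were in neither group. Of the shared promoter regions, 11.4% and 8.72% were called. When ranks were taken in the whole list, the split turned to 594 higher in SMC and 521 higher in non-SMC. The share of all 13606 shared regions called on that scale was not computed. The share called higher in SMC was near the background, and which type had more calls depended on this scale.

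The motif content of the called groups differed more than their size. AP-1 was in 84 of 678 regions higher in SMC (12.4%, 95% Wilson interval 10.1% to 15.1%) and in 381 of 886 higher in non-SMC (43.0%, 39.8% to 46.3%), a difference of 30.6 percentage points. These windows were centred on the strongest of the 4 summits, which need not come from the same library in both called groups. With the window at the summit of SMC 1 in every region, the shares were 11.5% and 24.9%, and with SMC 2 they were 11.7% and 25.3%. With the windows of non-SMC 1 and non-SMC 2 the difference was 27.5 and 27.0 points. The direction was thus the same at the summits of all 4 libraries, and the size was 13.4 to 13.6 points at SMC summits. Read from the motif, 41.4% of the AP-1 regions were called higher in non-SMC and 9.13% in SMC. Without the motif, 12.9% and 15.1% were called, close to the background. Regions with AP-1 had median pileups of 7, 14, 35 and 14 reads and those without it 8, 16, 22 and 10.

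SOX motifs went the other way. They were in 17.4% of the regions higher in SMC (14.7% to 20.4%) and in 8.01% of those higher in non-SMC (6.40% to 9.99%), with the same direction at the summits of all 4 libraries. FOXA was in 8.11% and 4.63%, in the same direction at all 4 summits with differences of 1.19 to 2.20 points. TEAD was in 9.0% and 17.6%, with differences of 3.74 and 2.63 points at the summits of SMC 1 and SMC 2 and 5.23 and 7.35 points at those of non-SMC 1 and non-SMC 2. RUNX was in 15.5% and 22.5%, though at the summit of SMC 2 the RUNX shares were 14.7% and 14.9%. CTCF cores were rare in both called groups, with 2.80% and 4.18%, against 6.56% of the regions in neither. Of the regions with a CTCF core, 79.3% were in neither group, against 49.5% of those with AP-1.

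**Figure D4:**
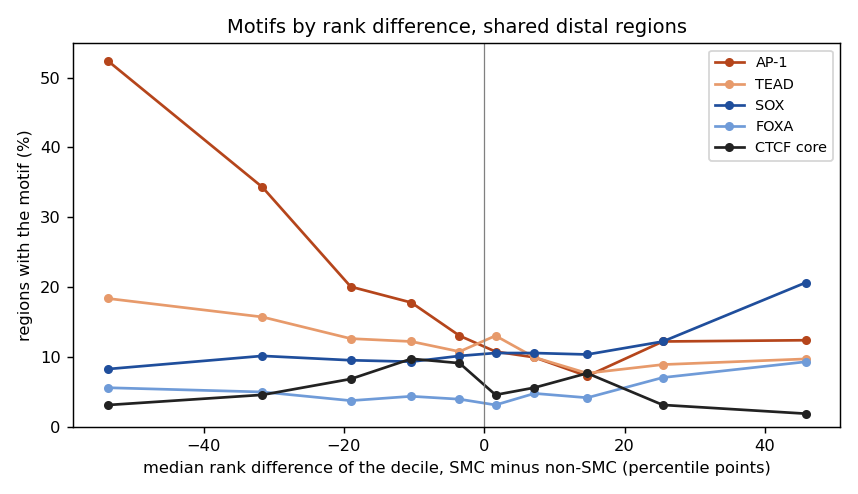
Share of shared distal regions with each motif (vertical axis, %) in deciles of the mean rank difference, SMC minus non-SMC (horizontal axis, decile median in percentile points). AP-1 fell from 52.4% at the non-SMC end to 12.4% at the SMC end with its lowest value of 7.23% in the eighth decile, SOX was highest at the SMC end (20.6%) and the CTCF core was lowest there (1.86%).

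The 8 regions with the largest gap toward SMC had fold enrichments of 9.97 to 14.4 in the SMC lines and 2.34 to 4.02 in the non-SMC lines. The region in an intron of *Nkain3*, which encodes a protein that interacts with the sodium pump, had pileups of 24 and 47 reads in SMC and 7 and 3 in non-SMC, and ranks of 97.6 and 96.7 against 4.86 and 1.05. The region upstream of *Slc26a9*, a chloride channel gene of airway epithelium, had pileups of 31 and 64 against 8 and 3. At *Ank*, a pyrophosphate transport gene, the pileups were 37 and 77 against 8 and 5. The separation of the types at these regions was set by their choice. Of the 16 non-SMC peaks at them, 8 did not reach a q-value of 0.05. Further such regions lay nearest to *Fam171a1*, *Psmg1*, *Spata46*, *Smok2a* and *Slit2*, the last a gene of an axon guidance ligand. Of the 8, 2 had a FOXA motif, 1 a SOX motif and 1 the AP-1 motif. The TEAD motif was present at *Slc26a9* and *Fam171a1*, and the RUNX motif at *Fam171a1* and *Slit2*.

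The 8 regions with the largest gap toward non-SMC had fold enrichments of 10.4 to 19.4 in the non-SMC lines and 2.36 to 3.66 in the SMC lines. The region 123 kb downstream of the TSS of *Cdc7*, a kinase of replication origins, had pileups of 4 and 7 reads in SMC and 147 and 76 in non-SMC. Upstream of *Actb*, which encodes cytoplasmic actin, the pileups were 4 and 9 against 111 and 57. The AP-1 window of *Dip2c* shown above belongs to a region with 6 and 13 against 151 and 68, and that of *Tpst1*, a tyrosylprotein sulfotransferase gene, to one with 4 and 7 against 52 and 38. Here too the separation was set by the choice, and 13 of the 16 SMC peaks did not reach a q-value of 0.05. At *Cdc7* their −log10 q was 0.70 and 0.46. The AP-1 motif was present at 5 of the 8 regions, namely *Cdk17*, *Frmd4a*, *Dip2c*, *Tpst1* and *A930002H24Rik*, and was not found near the summit at *Cdc7*, *Actb* and *Emb*. The TEAD motif was present at *Cdk17*, and the RUNX motif at *Cdk17*, *Actb* and *A930002H24Rik*. No base was covered in all 4 lists at *Frmd4a*, *Emb*, *Dip2c*, *Tpst1* and *A930002H24Rik*, and the summits at *Emb* spread over 805 bp.

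**Figure D5:**
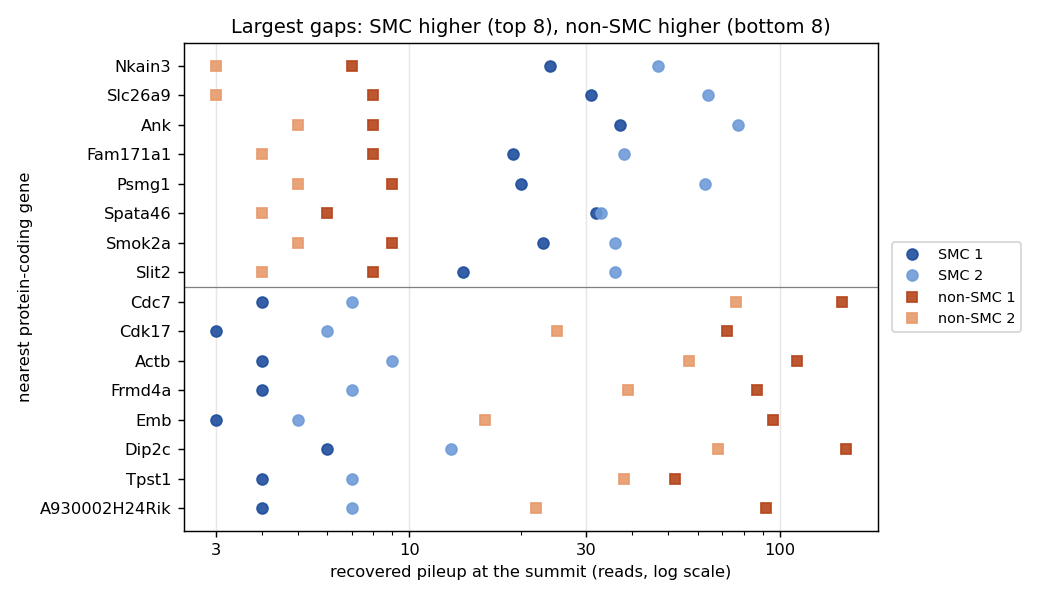
Recovered pileup at the summit (reads, log axis) in each library for the 16 shared distal regions with the largest rank gaps, named by their nearest protein-coding gene. The top 8 had 14 to 77 reads in SMC and 3 to 9 in non-SMC, and the bottom 8 had 3 to 13 in SMC and 16 to 151 in non-SMC.

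The 8 strongest CTCF core regions were chosen for being high in every list, so their likeness between types is not a finding. At *Cp*, the ceruloplasmin gene, the fold enrichments were 13.2, 12.7, 13.0 and 11.6 in SMC 1, SMC 2, non-SMC 1 and non-SMC 2, and at *Glrx*, a glutaredoxin gene, they were 11.5, 14.4, 12 and 11.5. *Zxdb*, on the X chromosome, had 12, 8.67, 12.4 and 11.3, and *Aqr* 8.96, 8.26, 14.9 and 11.1. The region near *Smarcc1*, a subunit of the BAF chromatin remodeler, had 7.77, 6.69, 10.3 and 8.93. The pair on chromosome 8 varied more, with 9.92, 17.7, 20.9 and 18.5 near *4930467E23Rik* and 7.55, 14.6, 25.7 and 17.7 near *Gm15319*. Of the 8, 6 lay within 1 kb of another annotated start.

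Of 9 neuroendocrine genes, 3 were nearest to shared distal regions, against 3537 of all 21755 protein-coding genes (16.3%). The counts for this and the next 2 gene lists were not tested. *Ncam1*, the marker by which SMC were sorted, had 3 regions 125 to 182 kb upstream of its TSS, all with the AP-1 motif and all called higher in non-SMC. The one 182 kb upstream had fold enrichments of 6.08 and 7.15 in SMC and 11.5 and 10.7 in non-SMC. *Nfib*, which encodes an NFI factor of metastatic SCLC, had 3 in its introns, 2 higher in SMC and 1 higher in non-SMC. The strongest of the 2, 258 kb downstream of the TSS, had 7.66 and 8.79 in SMC against 6.74 and 5.33. The one higher in non-SMC, 305 kb downstream, had 5.77 and 2.91 against 14.1 and 8.27. *Mycl* had 1, treated below. *Insm1*, *Neurod1*, *Chga*, *Sox11*, *Nkx2-1* and *Syp* had none.

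Of 11 non-neuroendocrine and Hippo pathway genes, 4 had regions, against 16.3% of all protein-coding genes. *Tead1* had 2 in introns. The one 41.2 kb downstream of the TSS, with AP-1 and TEAD motifs, had 4.73 and 5.80 in SMC and 12.4 and 11.6 in non-SMC and was called higher in non-SMC, whereas the other was in neither group. *Ccn1*, a YAP and TAZ target, had a region called higher in non-SMC 31.4 kb downstream and one called higher in SMC 7.16 kb upstream. The latter had an AP-1 motif and fold enrichments of 10.1 and 6.92 against 5.04 and 2.59. *Ccn2* had a region with an AP-1 motif 102 kb upstream, at 6.87, 3.15, 11.6 and 7.93. Both non-SMC lines were above both SMC lines there, but the ranks of SMC 1 and non-SMC 2 were 67.6 and 68.3 and the region was not called. *Tead3* had 1 region in neither group. Of 5 chromatin genes, 3 had regions, against the same 16.3%. *Arid1a* had 3, *Arid2* 2 and *Ctcf* 1, and *Smarca4* and *Rad21* had none. The region 14.0 kb upstream of the *Ctcf* TSS held a CTCF core and had 6.10, 4.50, 6.76 and 5.70.

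The strongest regions of all were not typical of the group. Of the 8 with the highest lowest-of-4 percentile, 2 adjacent ones lay on chromosome 1 upstream of *Col19a1*, at chr1:24612651-24612849 and chr1:24613038-24613196. There 93.3% and 85.7% of the 20-mers also occur in the mitochondrial genome. Their fold enrichments of 47.7 to 58.2 and 29.0 to 37.5 were much alike in all lines. The summit 32-mer occurred 12 times in the genome at *Gm8797*, 3 times at *Chl1* and 2 times at *Zfp97* and *Filip1l*. The region at *Rpusd4* was soft-masked as repeat over all of its window, with fold enrichments of 20.6, 18.6, 24.7 and 26.2, and *Limd1* had 30.7, 31.4, 44.4 and 31.8. Over all shared distal regions, 45 (0.929%) had a summit 32-mer in more than 1 copy, against 2.91% of the distal regions with fewer peaks. The part of mitochondrial or repeated sequence in these peaks was not tested.

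Fold enrichment is relative to the local background, and in 18 regions that background was at least 10 times the median over the shared distal regions in 1 or more libraries. The region 10.6 kb upstream of the TSS of *Mycl*, an oncogene of SCLC, had pileups of 85 and 211 reads in SMC 1 and SMC 2 and 11 and 6 in non-SMC. Its fold enrichments were 3.67, 4.69, 4.75 and 4.23, with the background raised 30.4 and 19.4 times in the SMC lines. At *Trit1*, next to *Mycl*, the pileups were 414 and 454 against 12 and 4, and the region was called higher in SMC. SMC 1 alone had a raised background at *Mfsd2a*, *Nfia*, *E130114P18Rik*, *Tm2d1* and 3 regions at *Pabpc4*, SMC 2 alone at *Nipal3*, *Eloa*, *Rpl11* and *E2f2*. At *Sfi1* the background was 9.47, 8.97, 9.88 and 12.5 times the median in the 4 libraries. The 4 regions nearest to *Esp38* on chromosome 17 had 44.6 to 78.5 times the median in all 4 libraries. Copy number at these places was not tested. Chromosome X held 92 regions, 0.538 per Mb against 1.32 to 2.70 on the autosomes. Its distal regions of any kind were also few, and the 92 were 1.26% of them, against 1.31% to 1.81% on the autosomes. The median rank of the 92 regions was 69.1 in SMC 1 and 48.0 to 52.9 in the other lines. Without chromosome X, 664 regions were called higher in SMC and 875 higher in non-SMC.

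At the limit of the rule, the included regions nearest to a TSS lay 3002 bp from *Ifna13* and 3011 bp from *Eif4enif1*. The fold enrichments were 5.36, 5.12, 5.94 and 5.46 at the former and 2.11 to 2.41 at the latter. Just inside, and thus not included, were shared regions 2992 bp from *Slc2a3*, with 3.28, 3.71, 11 and 9.79, and 2991 bp from *Cox7a2l*, with 9.21, 5.62, 8.75 and 7.96.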

How the data were processed

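Cultured SMC and non-SMC lines were profiled by ATAC-seq, 1 library per line. Per the paper's methods, the authors aligned 150 bp paired reads to mm10 with Bowtie2 2.3.4, removed duplicates and called peaks in each library with MACS2 2.1.1, whose settings are not given in the sources used here. The deposited lists give for each peak a fold enrichment (a ratio to local background) and the −log10 of its p-value and q-value. The pileup was recovered as the whole number that, with the deposited fold, gave the deposited −log10 p within 0.001. For this the fold was taken as pileup plus 1 divided by local background plus 1. Peaks off chromosomes 1 to 19 and X (72 to 89 per list) were left out. Groups followed the labels.

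Regions were merged and counted in Python 3.11.15 (numpy 2.4.6, pandas 2.3.3, scipy 1.17.1, figures with matplotlib 3.10.9), with merging checked against bedtools 2.31.1 and tested on simulated data. Each region took, per list, its peak of highest fold. Windows of 100 bp on each side of the strongest summit were searched on both strands for 18 motifs: a CTCF core and an NFI palindrome, and AP-1 TGACTCA, TEAD GGAATG, RUNX TGTGGT, SOX ACAATG, NEUROD-type E-box CAGATG, GC box GGGCGG, ETS CCGGAAGT, NRF1 GCATGCGC, YY1 AAGATGGC, NFY CCAATCA, CRE TGACGTCA, ZNF143 ACTACAATT, REST TCAGCACC, FOXA TGTTTAC, NKX2-1 CACTTGAG and GRHL AACCGGTT. A match is a description and not a bound site. Intervals are 95% Wilson intervals and cover counting error only.

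The regions, gene lists and tests were chosen with earlier results of these data known. Named regions were the 8 strongest, the 8 strongest with a CTCF core, the 8 with the largest rank gap in each direction, those nearest the 3 kb limit and those nearest to genes of 3 lists. One planned item is not reported here. Deviations of same-numbered lines from their type had a Pearson correlation of 0.0065 over the 4842 regions, so the numbers were not used as a block. With 1 library per line and no statement of separate cultures, p-values cover only the spread between these libraries.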

Additional observations from a re-analysis of the deposited data

How the results depend on the processing

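Of 117 alternative values, 61 were counted as unchanged, 55 as moved and 1 as changed in sign, and the cause was not tested. For shares and the AP-1 difference, unchanged meant within the interval of the value in the main setting. Numbers of regions had no interval and were judged by the size of the change alone. The rank difference had no interval either and was counted as unchanged wherever it kept its sign. With only peaks of −log10 q of at least 5, 970 regions were left, of which 120 were higher in SMC and 136 in non-SMC, with the CTCF core in 2.47%, AP-1 in 16.9%, an AP-1 difference of 22.3 points, another start within 1 kb in 45.6% and summits within 100 bp in 52.2%. With equal numbers of top peaks the last pair of shares was 29.9% and 35.4%, and with a base covered by all 4 lists 29.8% and 38.1%. Beyond 10 kb from a TSS, AP-1 was in 20.4% and another start near 24.1%. With the starts of all coding transcripts, CTCF was in 6.34%, AP-1 in 21.4% and another start near 14.9%. Ranks in the whole list gave a rank difference of 1.89 and 521 regions higher in non-SMC. With no minimum gap, 1159 and 1357 regions were called and the AP-1 difference was 25.4 points, and with a gap of 20 the calls were 411 and 563. Windows of 50 bp gave CTCF in 3.76%, AP-1 in 12.7% and an AP-1 difference of 23.8 points, windows of 250 bp CTCF in 7.33% and AP-1 in 26.5%, and 1 mismatch CTCF in 16.1%. Windows at the same library's summit in every region, chosen after seeing the data, gave AP-1 in 13.7%, 13.5%, 22.3% and 20.9% (SMC 1, SMC 2, non-SMC 1, non-SMC 2) and an AP-1 difference of 13.4 and 13.6 points at SMC summits. Leaving out 1 library at a time gave 6091 to 8729 regions, with CTCF in 4.91% to 5.53%, AP-1 in 14.9% to 26.6% and another start near 20.5% to 24.4%. The calls without 1 library were made in the 4842 main regions. There 1035 to 1189 were higher in SMC and 1283 to 1349 in non-SMC, with an AP-1 difference of 21.3 to 25.8 points. With 1 line left in 1 type, the call was easier to meet than with 2 lines in each. With the replicate block (line pair number) the rank difference was -3.35, as without it. In this balanced design the block cannot change the value, so this is not a check. The share of all shared regions called was not computed for the alternative settings, so their call counts have no background beside them. Low pileups in SMC 1 and non-SMC 2 limit what ranks of weak regions can show.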
